A study of Mus musculus with 4 samples.

Results

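The 10 genes described here encode the MHC class II presentation machinery of the mouse: H2-Aa, H2-Ab1, H2-Eb1, H2-DMa, H2-DMb1, H2-DMb2, H2-Oa, Cd74, Ctss and Ciita. They were taken by symbol from the 32285 genes of the count matrices, and all 10 were found. They were followed in single cells of transplanted tumors grown in wild-type (WT) mice and in mice lacking Lrrc25 (Lrrc25-/-), a gene for a leucine-rich repeat protein of myeloid cells. There were 4 libraries, 1 for each host genotype in each of 2 tumor models: B16F10, a melanoma line taken on day 14, and MC38, a colon carcinoma line taken on day 26. Each library held pieces of 100 mm3 from the tumors of 3 mice, pooled before dissociation, so 1 library stands for each group and the spread between mice was not measured. Bead-isolated CD45+ cells (leukocytes) had been added to unsorted cells at 5:1, so shares of cell types are not those of the tumor. The labels give no treatment beyond the deletion of Lrrc25.

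MHC class II molecules are pairs of an alpha and a beta chain on the surface of professional antigen-presenting cells, where they display peptides from the endocytic route to CD4+ T cells. The invariant chain (Cd74) holds the new pair and fills its groove, cathepsin S (Ctss) trims the invariant chain to a short peptide, H2-DM exchanges that peptide for antigen, and H2-DO restrains H2-DM. Ciita is the coactivator that turns on the class II genes and Cd74. It is brought to their promoters by factors that sit on short conserved elements, the X box (bound by the RFX complex) and the Y box (bound by NF-Y). Dendritic cells and B cells make class II without further stimulus, whereas macrophages raise it mainly after interferon-gamma.

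In GENCODE M21 (GRCm38, the mm10 build) 7 members lie in the MHC region of chromosome 17: H2-Aa on the minus strand (34282744 to 34287823), and H2-Oa (from 34092340), H2-DMa, H2-DMb2, H2-DMb1, H2-Ab1 and H2-Eb1 (to 34316674) on the plus strand. Ciita lies on chromosome 16 and Ctss on chromosome 3. RefSeq promoter sequences (GRCm38.p6) were found for 7 of the 10 members: H2-Aa, H2-Eb1, H2-DMa, H2-DMb1, H2-DMb2, H2-Oa and Ctss. They are shown because levels of these genes are set beside that of Ciita, and because the class II genes printed here and Ctss differ in the elements at which Ciita acts. Capitals mark the Y box core (GATTGG, or its reverse complement), the X box core (AACNGATG) and, in Ctss, a match to the core of the interferon-stimulated response element (GAAANNGAA). H2-Aa (chr17:34287824-34287973, minus strand), H2-Eb1 (chr17:34305717-34305866, plus) and Ctss (chr3:95526636-95526785, plus) are given for the 150 bases before the start. H2-DMb1 (chr17:34153117-34153146, plus), H2-DMb2 (chr17:34145146-34145175, plus) and H2-Oa (chr17:34092323-34092352, plus) are given as 30 bases around the Y box core.
H2-Aa: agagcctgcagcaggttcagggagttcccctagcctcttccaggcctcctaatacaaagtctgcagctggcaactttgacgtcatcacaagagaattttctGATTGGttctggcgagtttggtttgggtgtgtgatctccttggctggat
H2-Eb1: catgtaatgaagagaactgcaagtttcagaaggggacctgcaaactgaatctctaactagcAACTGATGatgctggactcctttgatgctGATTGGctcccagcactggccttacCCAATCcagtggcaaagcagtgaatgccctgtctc
H2-DMb1: gattcactcagtGATTGGtctgacctgcct
H2-DMb2: aagtcacttagtGATTGGactgacttaact
H2-Oa: gagaactgctctGATTGGctgcttaccgca
Ctss: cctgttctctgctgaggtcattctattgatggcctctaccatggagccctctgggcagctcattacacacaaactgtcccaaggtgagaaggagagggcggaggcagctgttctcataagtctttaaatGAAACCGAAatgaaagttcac
The Y box core began at -49 from the start in H2-Aa, -60 in H2-Eb1, -62 in H2-DMb1, -91 in H2-DMb2 and -44 in H2-Oa, and H2-Eb1 had another on the opposite strand at -35. H2-DMa held 1 only at -199 of 1 of its 2 RefSeq promoters. Distances are from the RefSeq start. GENCODE M21 starts H2-DMa at 34119541, H2-DMb2 at 34143307 and H2-DMb1 at 34153072, so their Y box cores lie inside those genes. Its H2-Oa start of 34092340 falls within the bases printed for H2-Oa. Exons cover 119, 13 and 39 of the 250 bases searched in H2-DMb1, H2-DMb2 and H2-Oa. An X box core preceded the Y box core by 29 bases in H2-Eb1 and by 30 bases in H2-DMb1 and H2-DMb2. In the 250 bases before its start, both strands searched, Ctss held no GATTGG, an AACNGATG at -207 and the GAAANNGAA match at -21. Among 32851 mouse promoters, 14.6% held GATTGG, 1.98% AACNGATG and 7.13% GAAANNGAA in the same 250 bases. These are matches of letters, and occupancy of the sites was not measured.

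The matrices held 10490 to 18545 barcodes and 105338548 to 138841749 UMIs (unique molecular identifiers, 1 for each captured RNA molecule) per library, and 9319 to 15792 cells were kept. Cells were sorted into classes by fixed lists of marker genes, none of them a member, and each class name below means cells that passed that gate. The libraries are always given in the order WT B16F10, Lrrc25-/- B16F10, WT MC38, Lrrc25-/- MC38. The macrophage gate took 3739, 4312, 9755 and 9465 cells, and the 2 types of conventional dendritic cell (cDC) were rare, with 14 to 35 cDC1 and 64 to 158 cDC2 per library. No gate claimed 9.16%, 13.5%, 19.4% and 13.5% of kept cells. Lrrc25 was at 158, 4.69, 90.3 and 2.10 CPM (UMIs per 1000000 UMIs of the class) in monocytes and macrophages, low in both Lrrc25-/- libraries as labelled. Pairs of libraries shared 96 to 247 barcode sequences, at most 1.40% of the smaller library. Xist, an RNA of female cells, was at 0.029, 0.023, 640.1 and 646 CPM in these cells, so tumor model, day of harvest and sex of the hosts cannot be told apart.

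The antigen-binding chains were highest in conventional dendritic cells. H2-Aa, the alpha chain of I-A, was at 11380, 14682, 6208 and 8231 CPM in cDC2, and at 10818, 11993, 6817 and 8269 CPM in cDC1. Levels in these 2 classes overlapped, and in both they were lower in the MC38 libraries. Migratory dendritic cells (mature cells marked by the chemokine receptor Ccr7) came next with 5313, 6902, 2839 and 4691 CPM, below both in each library and overlapping with B cells at 4650.4, 5129, 3738 and 3346 CPM. Plasmacytoid dendritic cells (pDC) ranged from 627 to 3673 CPM, monocytes from 1720.1 to 3338 CPM and macrophages from 943 to 3256 CPM, and these ranges overlapped as well. The beta chains kept this order at the top: H2-Ab1 (I-A) was at 7045 to 13679 CPM in cDC2 against 857 to 3249.9 CPM in macrophages, and H2-Eb1 (I-E) at 6262 to 12398 against 763 to 2978 CPM. For all 3 chains the lowest cDC2 library was above the highest macrophage library. H2-Eb1 shares its locus with Gm20513, a gene annotated on the other strand, and whether the counting used strand is not given in the sources used here, so their reads cannot be told apart.

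Summed counts of each class were tested against macrophages over the 4 libraries with edgeR, library as a term, and Benjamini-Hochberg adjustment over all genes tested. In cDC2, 9 of the 10 members were higher and Ctss was lower, beside 8.48% of 14218 genes called higher and 14.5% called lower. H2-Aa was higher by 2.59 on the log2 scale (SE 0.34, adjusted p = 4.31e-07, higher in 4 of 4 libraries) and Cd74 by 2.21 (SE 0.35, adjusted p = 1.01e-05). The same 9 members were higher in cDC1 and Ctss was lower (background 5.8% and 13.3%), where H2-Aa differed by 2.35. In migratory dendritic cells 6 members were higher and 2, H2-DMb1 and Ctss, were lower (background 12.3% and 23.5%). H2-Ab1 differed there by 0.84 and H2-Aa by 1.43, and Cd74 at 0.86 did not pass (adjusted p = 0.0537). The members called higher were 5 with DESeq2, which lost H2-Eb1 (adjusted p = 0.102), 5 with a stricter gate, which lost Ciita (0.101), and 7 without the filter or either MC38 library, Cd74 among them. H2-DMa was also called lower without either B16F10 library.

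B cells had 3 members called higher than in macrophages, H2-DMb2, Ciita and H2-Oa, and Ctss lower (background 6.07% and 17.2%). Only 10 and 22 B cells came from the MC38 libraries. Without the WT MC38 library 7 members were called higher, H2-Aa and Cd74 among them, and without the Lrrc25-/- MC38 library 5. Monocytes had 5 members called higher and none lower (background 10.2% and 17.3%): H2-Ab1, H2-DMa, H2-DMb2, Ciita and H2-Oa, by 0.62 to 2.12. With DESeq2 or without the filter 7 members were called, without either MC38 library 6, without either B16F10 library 3 and with a stricter gate 2.

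The peptide exchange genes split by cell type. H2-DMa, the alpha chain of H2-DM, was at 909, 826, 504 and 737 CPM in cDC2 and at 141, 137, 236 and 335 CPM in macrophages, with no overlap. H2-DMb1, one of the beta chains, was at 951, 1087, 519 and 715 CPM in cDC2 but at 82.2, 87.4, 104 and 135 CPM in migratory dendritic cells. In each library the migratory cells were below the macrophages (107, 109.7, 256 and 367 CPM; log2 difference -1.01, passing the test). H2-DMb2, the other beta chain, had another order: B cells were highest at 553, 571, 808 and 483 CPM, then cDC2 at 298 to 378 CPM, and macrophages had 5.62, 4.14, 10.9 and 14.3 CPM. It was higher than in macrophages by 5.53 on the log2 scale in B cells and by 5.35 in cDC2, both passing the test. In migratory dendritic cells H2-DMb2 was higher by 4.0 while H2-DMb1 was lower, so the 2 beta chain genes differed from macrophages in opposite directions in that class. Of the 90-base stretches in the last 500 bases of H2-DMb1, 12.7% also occur in H2-DMb2, and how such reads were counted is not given in the sources used here, so low counts of H2-DMb2 are uncertain.

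H2-Oa, the alpha chain of H2-DO, was found mainly in dendritic cells and B cells and was near 0 in macrophages. It was at 132, 171, 0 and 199.8 CPM in B cells (the value of 0 comes from 10 cells), at 61.2 to 167 CPM in cDC2 and at 108, 119, 40.9 and 47.1 CPM in pDC. Macrophages had 1.66, 0.809, 1.85 and 4.01 CPM, below every library of cDC1, cDC2 and pDC. They were also below the lymphocyte gates of the same library. H2-Oa was at 19.8, 17.1, 6.64 and 10.5 CPM in T cells. In natural killer cells it was at 28.6, 32.3, 7.70 and 7.21 CPM, from 5, 11, 3 and 6 UMIs. The source of this RNA in lymphocytes was not tested. In pDC, H2-Oa (log2 difference from macrophages 4.96) and H2-DMb2 (1.35) were called higher, beside 9.94% of 13988 genes, and Ctss (-2.36) lower, beside 17.7%. The call for H2-DMb2 was lost with DESeq2, with the stricter gate and without either B16F10 library. Without the WT B16F10 library 5 members, H2-Aa, H2-Ab1, H2-Eb1 and Cd74 among them, were called lower in pDC than in macrophages, and 4 without the Lrrc25-/- B16F10 library.

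Cd74, the invariant chain, encoded on chromosome 18, followed the antigen-binding chains, with 21933, 27317, 15218 and 17525 CPM in cDC2 and 2304, 2448, 6091 and 9573 CPM in macrophages. Ciita was sparse in most classes. It was at 26.3, 26.0, 50.5 and 183 CPM in B cells, at 69.2, 42.9, 90.4 and 70.3 CPM in cDC1, at 15.7, 19.0, 77.7 and 74.2 CPM in cDC2, and at 2.05, 2.43, 12.9 and 16.1 CPM in macrophages. Its level in cDC2 of the MC38 libraries was above that of the B16F10 libraries, while the level of H2-Aa in the same cells was below. Ctss was instead highest in macrophages, at 2366, 2432, 3058 and 3716 CPM, with 2233 to 3054 CPM in monocytes, 1557 to 2350.2 CPM in cDC2, 554 to 791 CPM in cDC1 and 366 to 556 CPM in B cells. Its log2 difference from macrophages was -2.38 in cDC1 (adjusted p = 3.30e-26) and -0.63 in cDC2 (adjusted p = 0.0126). The call in cDC2 was lost without the WT MC38 library (adjusted p = 0.0635) and without the Lrrc25-/- MC38 library (0.127).

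**Figure D1:**
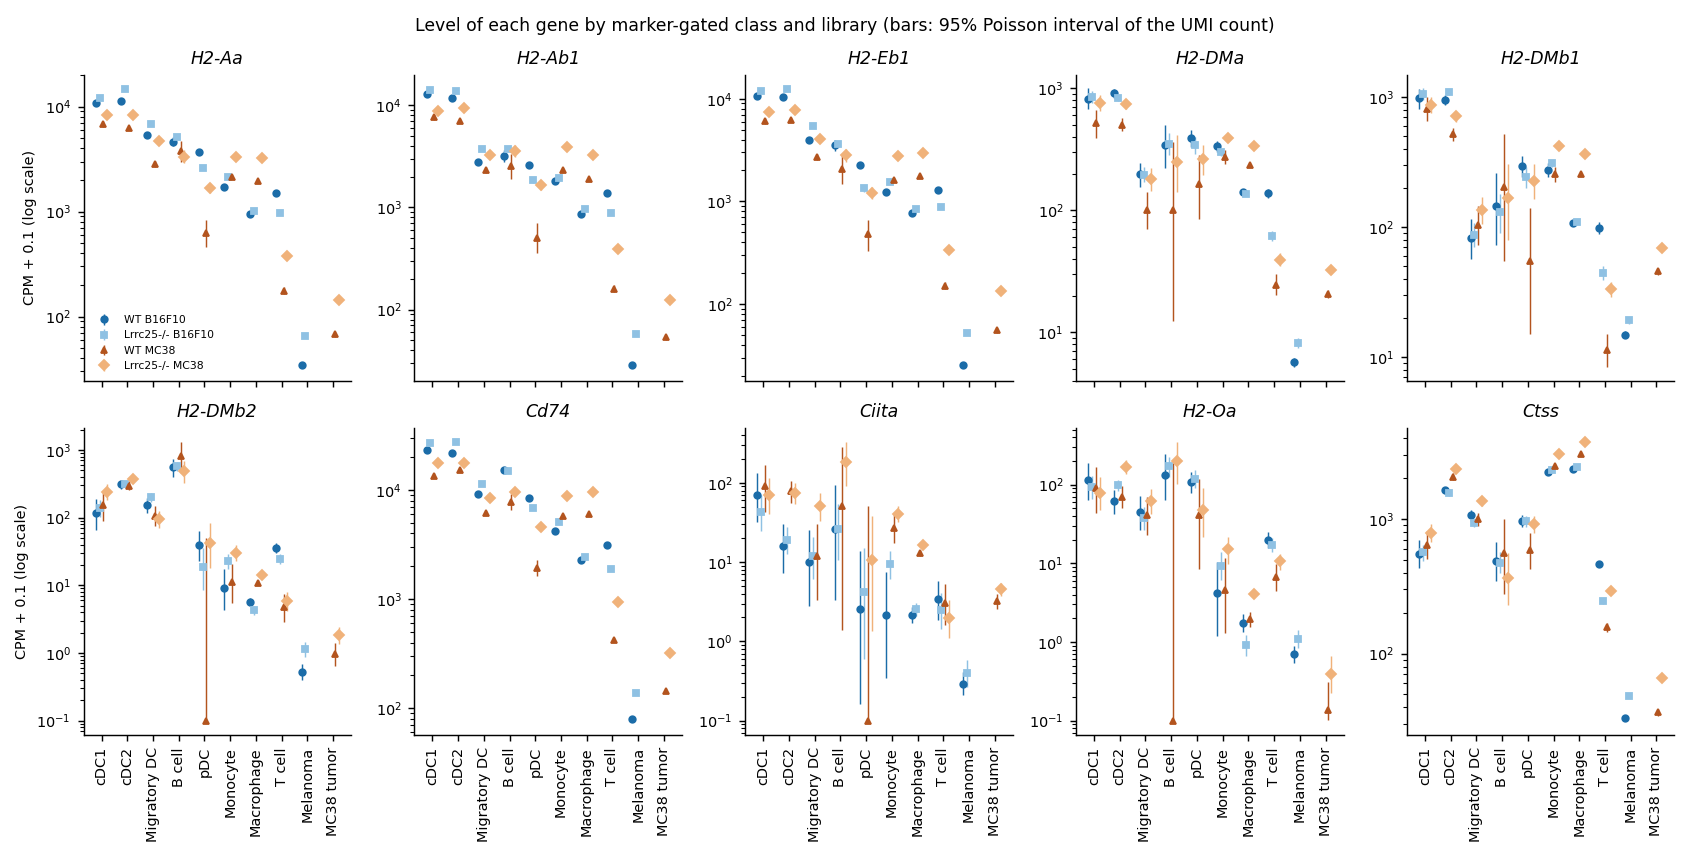
Level of the 10 genes, 1 panel each, as CPM + 0.1 on a log axis, by marker-gated class. Each point is 1 library and each bar the 95% Poisson interval of its UMI count. cDC1 and cDC2 stand highest for H2-Aa (6208 CPM or more in every cDC2 library), H2-DMb2 is highest in B cells, and Ctss is highest in macrophages.

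The other genes of the route, from a list of 20 of which H2-Ea was absent from the feature table, did not share one order. In cDC2 against macrophages 5 of the 19 were higher: H2-Ob (the beta chain of H2-DO, log2 difference 4.56), H2-Eb2 (4.10), the thiol reductase gene Ifi30 (0.75) and the costimulatory genes Cd80 (2.12) and Cd86 (1.13). Another 5 were lower: the endosomal protease genes Lgmn (-2.64), Ctsl (-3.14), Ctsb (-3.09) and Ctsd (-2.74), and March1 (-1.01), the ubiquitin ligase that removes class II from the surface. The background was 8.48% of 14218 genes called higher and 14.5% called lower. The subunits of the factors on the X and Y boxes (Rfx5, Rfxap, Rfxank, Nfya, Nfyb, Nfyc) and Creb1 did not pass the test in either direction.

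Single macrophages ranged from no class II RNA to levels seen in migratory dendritic cells. The summed UMIs of H2-Aa, H2-Ab1 and H2-Eb1 had a median of 3.10, 4.64, 26.9 and 63.0 per 10000 UMIs of the cell in macrophages. The 90th percentile was 88.4, 96.7, 153 and 218, and 19.8%, 13.4%, 10.2% and 1.54% of macrophages had none of these UMIs. In B16F10 the median macrophage was thus near the bottom of the range, while the 90th percentile lay above the median migratory dendritic cell of the same library (57.0 and 75). In MC38 the median migratory dendritic cell had 23.8 and 62.9, near the median macrophage of the same library (26.9 and 63.0). The median cDC2 had 365, 424, 198 and 276. The 10th percentile of cDC2 was 151, 225, 108 and 146, above the 90th percentile of macrophages in B16F10 and below it in MC38. Depth was 8232, 8623, 4226 and 5703 UMIs in the median macrophage, and the B16F10 libraries, the deeper ones, held larger shares at 0 than the MC38 libraries.

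**Figure D2:**
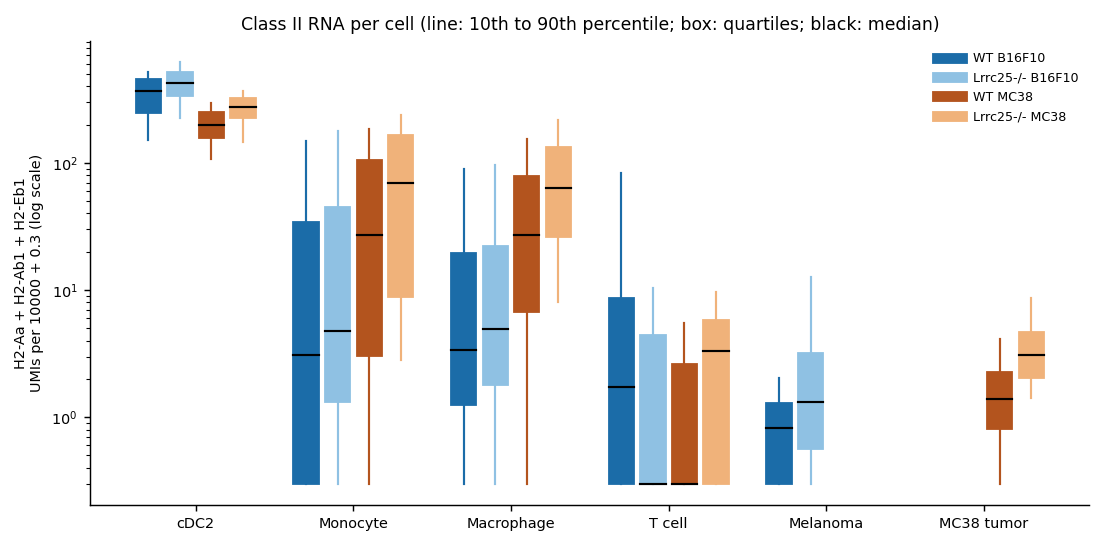
Class II RNA per cell (UMIs of H2-Aa, H2-Ab1 and H2-Eb1 per 10000 UMIs, plus 0.3, log axis) by class and library. Lines run from the 10th to the 90th percentile, boxes span the quartiles and black marks are medians, which in macrophages go from 3.10 in WT B16F10 to 63.0 in Lrrc25-/- MC38.

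Macrophages were divided by the chemokine gene Cxcl9, the arginase gene Arg1, the monocyte genes Ly6c2 and Plac8 and the mannose receptor gene Mrc1, none of them a member. Cells with Ly6c2 or Plac8 were set apart first, whatever their Cxcl9, Arg1 or Mrc1, so the other subsets hold none of them. In MC38 the cells set apart held Cxcl9 at 1597 CPM in the WT and 1613 CPM in the Lrrc25-/- library. H2-Aa was at 2767, 3183, 4000.4 and 4837 CPM in Cxcl9+ macrophages without Arg1, and at 722, 525, 1147 and 1825 CPM in Arg1+ macrophages without Cxcl9. Every Cxcl9+ value was above every Arg1+ value, and Cxcl9+ Arg1+ cells lay between them in each library (1650.4, 2486, 2398 and 2942 CPM). Macrophages with Ly6c2 or Plac8 were also high, at 2239, 2578, 3943 and 5787 CPM, above the Cxcl9+ subset in the Lrrc25-/- MC38 library and below it in the other 3. The Mrc1+ subset differed between the models: 469 and 501 CPM in B16F10, the lowest subset there, against 2249 and 3969.9 CPM in MC38.

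In the test of Cxcl9+ against Arg1+ macrophages over the 4 libraries, 9 of the 10 members were higher, and none was lower, beside 7.38% of 12080 genes called higher and 8.68% lower. H2-Eb1 differed by 2.02 on the log2 scale, H2-DMb1 by 1.86, H2-Aa by 1.75, Cd74 by 1.51 and Ciita by 2.06. Ciita itself was at 9.03, 9.71, 29.7 and 26.3 CPM in the Cxcl9+ and at 0.527, 0.595, 6.54 and 8.23 CPM in the Arg1+ subset, with no overlap. Ctss did not pass the test (log2 difference -0.07, adjusted p = 0.724). The call for H2-Oa (1.41) was lost with DESeq2, with the stricter gate, and without the WT B16F10 or the WT MC38 library, and that for H2-DMb2 (0.91) without the WT MC38 library (adjusted p = 0.0759).

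**Figure D3:**
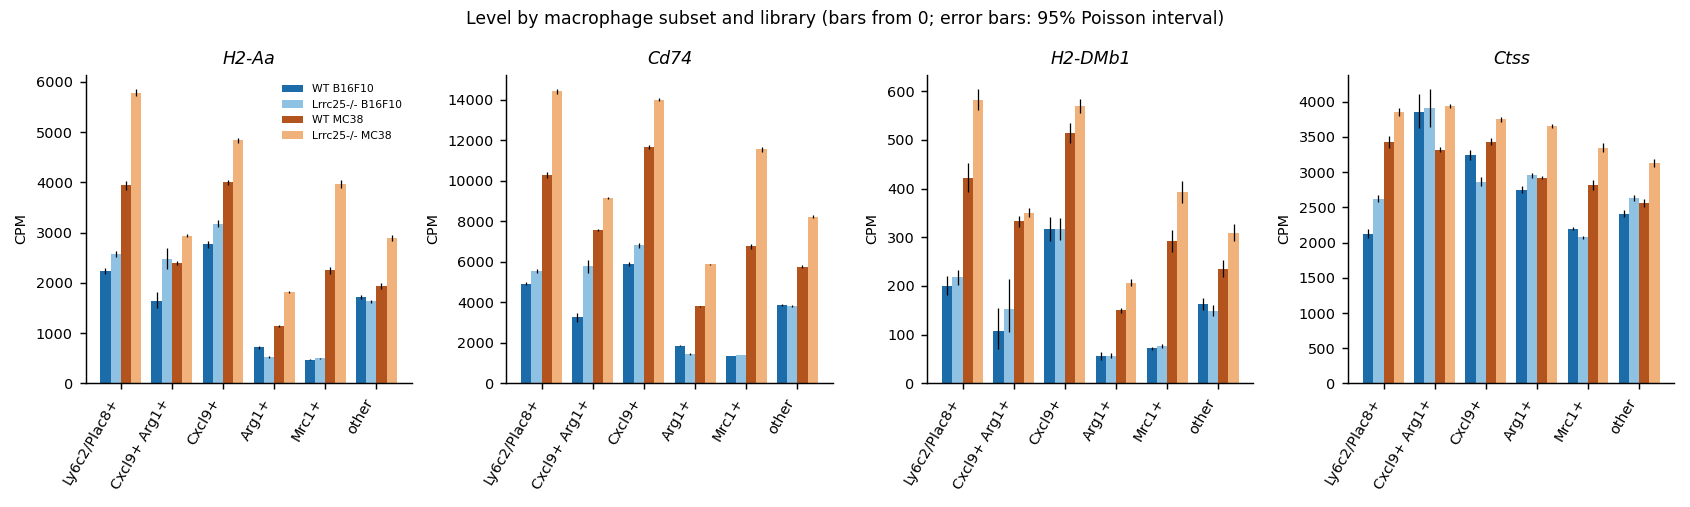
Level in CPM by macrophage subset and library, as bars from 0 with the 95% Poisson interval of the count. The Cxcl9+ bars of H2-Aa (2767 to 4837 CPM) stand above the Arg1+ bars (525 to 1825 CPM), and the Mrc1+ bars are low in B16F10 and high in MC38.

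Between the tumor models, class II RNA of monocytes and macrophages together was higher in MC38. H2-Aa was at 966, 1079.9, 1981 and 3259 CPM, H2-Ab1 at 885, 1023, 1899 and 3269 CPM, and Cd74 at 2359, 2612, 6084 and 9549 CPM. Both MC38 libraries were above both B16F10 libraries for all 3 genes. In edgeR's fit with genotype as a term, which leaves 1 residual degree of freedom, 7 of the 10 members were called higher in MC38. They were Ciita by 2.21 (SE 0.20, adjusted p = 9.34e-05), Cd74 by 1.2 (SE 0.31, adjusted p = 0.01), H2-Eb1 by 1.06, H2-DMb1 by 0.98, H2-Ab1 by 0.97, H2-Aa by 0.90 and H2-DMb2 by 0.79. H2-DMa was at 0.53 (adjusted p = 0.0535, and called by DESeq2), H2-Oa at 0.53 (0.305) and Ctss at 0.07 (0.831). The background was wide, with 31% of 15304 genes called higher and 29.5% lower.

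Of the 19 other route genes, 5 were higher in MC38 (March1 by 2.69, Cd80 by 1.41, Sppl2a by 1.35, Rfx5 by 1.15 and Cd86 by 0.64). Another 7 were lower, among them the protease genes Ctsb (-2.11), Ctsd (-1.63), Lgmn (-1.57) and Ctsl (-1.19), and these 4 were also lower in cDC2 than in macrophages. Over all 15304 genes 31% were called higher and 29.5% lower, and the counts of 5 and 7 among the 19 are near these shares. Of 12 genes of the interferon-gamma route, 7 were higher, beside the same 31%, with Cxcl9 at 138, 149, 989 and 1320 CPM. The macrophage subsets differed too: Mrc1+ cells without the other markers made up 53.9%, 39.3%, 5.87% and 6.28% of macrophages.

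For the deletion of Lrrc25, the 2 models gave different sizes. In MC38, H2-Aa of monocytes and macrophages was at 1981 CPM in the WT library and 3259 CPM in the Lrrc25-/- library. The ratio was 1.65 (95% exact binomial interval 1.63 to 1.66, counting error only). H2-Ab1 had a ratio of 1.72, H2-Eb1 (1777 and 2970.3 CPM) of 1.67 and Cd74 (6084 and 9549 CPM) of 1.57. With 1 library per group no test within a model was possible, so a size rule was used: at least 1.5-fold after adding 1 CPM, with 20 CPM or more in either library and 50 counts. These 4 of the 7 members measured passed it as higher, beside 0.811% of 5794 genes called higher and 2.54% lower. H2-DMb1 (log2 difference 0.52), H2-DMa (0.51) and Ctss (0.28) lay under the threshold. Ciita (13.1 and 16.9 CPM), H2-DMb2 (10.9 and 14.8) and H2-Oa (1.91 and 4.37) were too low to be measured by the rule. The median over the 7 members was 0.65 on the log2 scale against -0.011 over all genes measured.

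The mix of macrophage subsets moved with this difference. Arg1+ macrophages, the subset lowest in H2-Aa in MC38, made up 46.2% of WT and 27% of Lrrc25-/- macrophages, whereas Cxcl9+ cells without Arg1 made up 11.2% and 18.0% and Ly6c2/Plac8+ cells 3.65% and 8.18%. Weighted to a common mix of subsets, the log2 difference was 0.46 for H2-Aa, 0.50 for H2-Ab1, 0.46 for H2-Eb1 and 0.43 for Cd74. None of the 7 members then passed the 1.5-fold rule. The common mix was worked out for the members only, so this count has no share over all genes beside it. Within subsets of MC38 the same 4 members passed in Arg1+ cells (background 0.861%; H2-Aa 1147 and 1825 CPM) and in Mrc1+ cells (background 3.1%; 2249 and 3969.9 CPM). None of 8 measured passed in Cxcl9+ cells (background 0.901%; 4000.4 and 4837 CPM) and none of 7 in Cxcl9+ Arg1+ cells (0.784%; 2398 and 2942 CPM). In the Ly6c2/Plac8+ subset 2 of 9 passed (2.15%), and in the remaining macrophages 1 of 7 (2.61%). Dendritic cell markers within monocytes and macrophages of MC38 summed to 264 and 188 CPM for the 7 markers of cDC2, 112 and 107 CPM for the 8 of cDC1 and 142 and 176 CPM for the 10 of migratory dendritic cells, so that only the last was higher in the Lrrc25-/- library. Their part in the result was not tested.

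In B16F10 none of the 7 members measured passed, beside 4.08% of 4686 genes called higher and 0.982% lower. H2-Aa was at 966 and 1079.9 CPM, a log2 difference of 0.16, H2-Ab1 was at 0.21, H2-Eb1 at 0.18, Cd74 at 0.15 and H2-DMa at 0.0018. All 7 differences were positive and under 1.5-fold. By subset, 4 of 7 members measured passed as higher in the Cxcl9+ Arg1+ cells of B16F10 (background 11.6%), a subset of 22 and 19 macrophages. There the ratio was 1.51 for H2-Aa, 1.83 for H2-Ab1, 2.04 for H2-Eb1 and 1.77 for Cd74. H2-DMb1 (1.41), Ctss (1.01) and H2-DMa (0.76) did not pass, and Cxcl9, a gene of the gate, had a ratio of 0.43. The 4 members are those that passed in all monocytes and macrophages of MC38, where this subset had none. No member passed as higher in the Cxcl9+ (7.37%), Arg1+ (5.38%), Mrc1+ (2.6%) or remaining macrophages (5.16%) of B16F10. In Ly6c2/Plac8+ cells none of 8 was higher (12.1%) and 1, H2-DMb2, was lower (10.6%). Whether the genotype difference differed between the models was not tested, since 1 library stands for each group.

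The fit over both models, with tumor model as a term, called Lrrc25 alone among 15304 genes (log2 difference -5.22, adjusted p = 4.64e-05; 0.00653% called lower and 0% higher) and none of the 10 members. H2-Ab1 was at 0.52 (SE 0.27), H2-Aa at 0.46 (SE 0.27), Cd74 at 0.42 (SE 0.30) and Ciita at 0.44 (SE 0.20), all with an adjusted p of 1 in edgeR. At an unadjusted p under 0.05 the fit held 484 genes and no member. DESeq2 called 10 genes, none a member, and had 4 members under 0.05 unadjusted, beside 238 of 23348 genes. edgeR called no member for genotype in macrophages alone, in monocytes, in 5 macrophage subsets, in cDC2 or in migratory dendritic cells either. The genes called there in either direction made up 0.00657% in macrophages, 0.703% in monocytes, 0.455% in cDC2 and 0% in migratory dendritic cells. In the subsets they made up 0.0304% (Ly6c2/Plac8+), 0.143% (Cxcl9+), 0.016% (Arg1+), 0.0567% (Mrc1+) and 0.0177% (the remaining cells). The members under an unadjusted p of 0.05 in edgeR numbered 6 in monocytes, 4 in cDC2 and 2 in migratory dendritic cells. Over all genes 465 of 7963, 289 of 5712 and 172 of 5085 were under it in these 3 classes. No member was under it in the macrophage classes, beside 428 of 15215 genes in macrophages alone. DESeq2 called no member in any of these classes. Without the filter on low counts edgeR called 3 members higher in Lrrc25-/- monocytes, H2-Aa, H2-Eb1 and Cd74, beside 0.122% of 16416 genes.

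**Figure D4:**
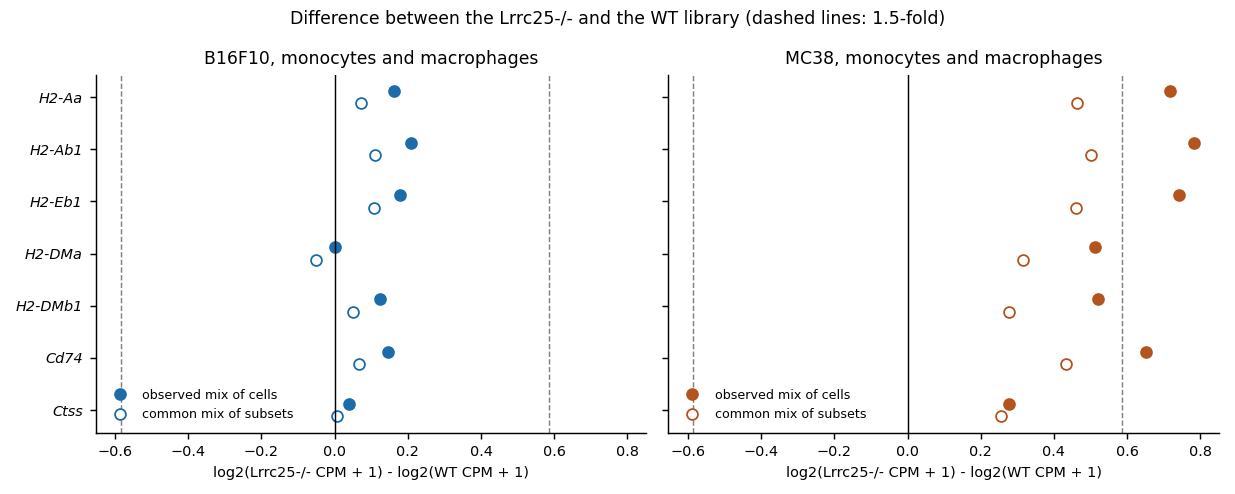
Log2(CPM + 1) of the Lrrc25-/- library minus that of the WT library in monocytes and macrophages, for each gene and model. Filled points give the observed mix of cells, open points a common mix of macrophage subsets, worked out for the members only, and dashed lines 1.5-fold. In MC38 the filled points of H2-Aa (0.72), H2-Ab1 (0.78), H2-Eb1 (0.74) and Cd74 (0.65) lie past the line and their open points (0.43 to 0.50) do not.

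Shares of positive cells were compared as well. After thinning each monocyte or macrophage to 1000 UMIs, which left out 82, 256, 1101 and 1028 shallower cells, H2-Aa was found in 29%, 32.1%, 57.8% and 76.0% of cells and Cd74 in 46.5%, 50.4%, 80.4% and 91.6%. Without thinning the shares were 55.3%, 61.9%, 74.9% and 90.1% for H2-Aa. Ctss was found in 83.3%, 82.4%, 91.4% and 92.9% and Ciita in 0.155%, 0.462%, 1.23% and 1.60% of thinned cells. The 95% binomial intervals (exact Clopper-Pearson) of the WT and Lrrc25-/- shares lay apart, with the Lrrc25-/- share higher, for 8 of the 10 members in MC38 and for 4, H2-Aa, H2-Ab1, H2-Eb1 and Cd74, in B16F10. By the same rule 5.15% of all genes found in thinned cells had a higher and 5.57% a lower share in MC38, and 4.38% and 3.63% in B16F10. Among the genes measured by the size rule, 12.6% had a higher share in MC38, as did 7 of the 7 members measured. In B16F10 12.2% had, as did 4 of 7 members. No member had a lower share by this rule at 1000 UMIs. With cells of 1 library on each side, intervals that lie apart are no test of genotype. In B16F10 the 4 became 2 after thinning to 2000 UMIs, and without thinning 1 member had a lower share. T cells, which in mice should lack class II, had an H2-Aa share of 23.4%, 12.5%, 5.70% and 13.6% at the same 1000 UMIs, and a Ciita share of 0.616% and 0.165% in the B16F10 libraries. The Ciita share of monocytes and macrophages of WT B16F10 lay below that of its T cells, a gate that also held class II RNA, and is not read as expression. The median depth before thinning was 4807, 2654, 4219 and 3714 UMIs in T cells and 7937, 7860.5, 4195.5 and 5615 UMIs in monocytes and macrophages.

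Class II RNA was also found in cells that should lack it. In the T cell gate H2-Aa was at 1492, 959, 177 and 379 CPM. That is 158%, 94.9%, 8.95% and 11.6% of the macrophage level of the same library, where C1qa, a complement gene of macrophages, was at 2.59%, 2.01%, 1.73% and 3.08%. In B16F10 the RNA was held by few T-gated cells: the median cell had 1.43 and 0 class II UMIs per 10000, and the 90th percentile was 83.0 and 10.1. Summed marker levels in these T cells were 141, 69.3, 54.6 and 79.1 CPM for the 7 markers of cDC2, 39.1, 22.9, 4.92 and 6.83 CPM for the 8 of B cells and 677, 447, 219.7 and 491 CPM for the 10 of macrophages, each highest in the library with the highest H2-Aa. In the WT MC38 library the B cell markers Cd79a, Ms4a1, Pax5 and Fcmr were at 0 in T cells. The part of such cells in the T cell values was not tested. By the size rule 7 of 7 measured members were higher in the Lrrc25-/- library in T cells of MC38 (background 4.19%) and 6 of 8 were lower in those of B16F10 (4.15%).

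In tumor cells the antigen-binding chains stood at a few percent of the macrophage level. H2-Aa was at 34.2 and 65.5 CPM in melanoma cells of the WT and Lrrc25-/- B16F10 libraries (3.62% and 6.48% of the macrophage level) and at 67.5 and 143 CPM in MC38 tumor cells (3.41% and 4.39%). C1qa stood at 1.13% and 1.48% of its macrophage level in melanoma cells and at 1.14% and 1.71% in MC38 tumor cells. Cd74 was at 78.7 and 137 CPM in melanoma cells and at 145 and 318 CPM in MC38 tumor cells, and Ciita at 0.191 and 0.296 and at 3.12 and 4.43 CPM. H2-DMb1 and Ciita stood higher against macrophages. H2-DMb1 was at 13.8% and 17.4% in melanoma cells and 17.8% and 19.0% in MC38 tumor cells. Ciita was at 9.31% and 12.2% and at 24.3% and 27.5%. These Ciita values rest on 16 and 15 UMIs in melanoma cells and on 83 and 123 in MC38 tumor cells. In macrophages of B16F10 Ciita was itself at 2.05 and 2.43 CPM, so the melanoma percentages are uncertain. H2-Oa was at 0.598 and 1.01 CPM in melanoma cells beside 1.66 and 0.809 CPM in macrophages. In MC38 tumor cells H2-Oa was at 0.0376 and 0.288 CPM, beside 1.85 and 4.01 CPM in macrophages. H2-DMa was at 8.72% and 9.57% in MC38 tumor cells. In melanoma cells it was at 3.97% and 5.88%, below H2-Aa in the Lrrc25-/- library. By the size rule, 4 of 5 measured members were higher in the Lrrc25-/- library in melanoma cells (background 2.48%) and 7 of 7 in MC38 tumor cells (0.867%). Macrophage genes also differed in these cells: in MC38 tumor cells C1qa was at 25.9 and 49.0 CPM, Apoe at 53.1 and 100.1 CPM and Lyz2 at 80.0 and 157 CPM in the WT and Lrrc25-/- libraries, and the 10 macrophage markers summed to 151 and 272 CPM. In melanoma cells C1qa was at 31.5 and 40.8 CPM and Lyz2 at 90.4 and 145 CPM, while Apoe was at 916 and 871 CPM and the 10 markers at 1073 and 1072 CPM. The part of free RNA in these values was not tested.

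Among the other classes, monocytes of MC38 had 6 of 9 measured members higher in the Lrrc25-/- library (background 6.47%), with H2-Aa at 2149.8 and 3338 CPM, and those of B16F10 1 of 8 (10.4%). cDC2 had 1 of 10 in MC38 (5.95%) and 1 of 9 in B16F10 (13.3%). In migratory dendritic cells 2 of 8 were higher in MC38 (6.16%) and none of 9 in B16F10 (14.1%). H2-Aa of cDC2 was higher in the Lrrc25-/- library of both models, at 11380 and 14682 CPM in B16F10 and at 6208 and 8231 CPM in MC38, under 1.5-fold in both. B cells had no member higher in B16F10 (15.7%) or MC38 (14.5%).

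Levels of the members varied together with Ciita over classes. Over the 41 sums of a class in a library with at least 50 cells, Pearson's r between log2(CPM + 1) of Ciita and of the member was 0.78 for H2-Aa, 0.79 for H2-Ab1, 0.80 for H2-Eb1, 0.79 for H2-DMa, 0.80 for H2-DMb1, 0.80 for Cd74 and 0.72 for H2-DMb2. It was 0.66 for Ctss and 0.51 for H2-Oa. Within the 19 sums of antigen-presenting classes r was lower for every member. There it was 0.60 for H2-Aa, 0.68 for H2-Ab1, 0.67 for H2-Eb1, 0.66 for Cd74 and 0.62 for H2-DMb2. For H2-Oa it was 0.43, for H2-DMa 0.39, for H2-DMb1 0.38 and for Ctss 0.08. The points share libraries and depth, and Ciita rests on few UMIs in many of them, so these are descriptions. H2-Aa and Cd74 had the highest correlation among the members (0.996), and H2-Oa and Ctss the lowest (0.497).

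In single macrophages thinned to 1000 UMIs, those with a Ciita UMI numbered 6, 16, 103 and 128. Their H2-Aa level was 4.45 times that of macrophages without a Ciita UMI in the Lrrc25-/- B16F10 library (95% exact binomial interval 3.53 to 5.52). It was 1.96 times in WT MC38 (1.77 to 2.17) and 1.58 times in Lrrc25-/- MC38 (1.46 to 1.71). For Cd74 the ratios in these 3 libraries were 3.36, 1.85 and 1.60, and for Ctss 1.07, 1.06 and 1.12. WT B16F10, where the share of macrophages with Ciita was not above that of T cells, had an H2-Aa ratio of 5.47 from its 6 cells. In cDC2 the few cells with Ciita (5 and 6 in the MC38 libraries) gave ratios on both sides of 1: 0.632 and 0.885 for H2-Aa, 1.05 and 0.895 for H2-Ab1, 1.02 and 1.19 for H2-Eb1 and 1.36 and 0.999 for Cd74. In migratory dendritic cells of Lrrc25-/- MC38, 5 cells with Ciita had 2.12 times the H2-Aa (1.48 to 2.96) and 2.72 times the Cd74 (2.19 to 3.36). These intervals cover counting error only, and cells of 1 library are no replicates, so no test was made.

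**Figure D5:**
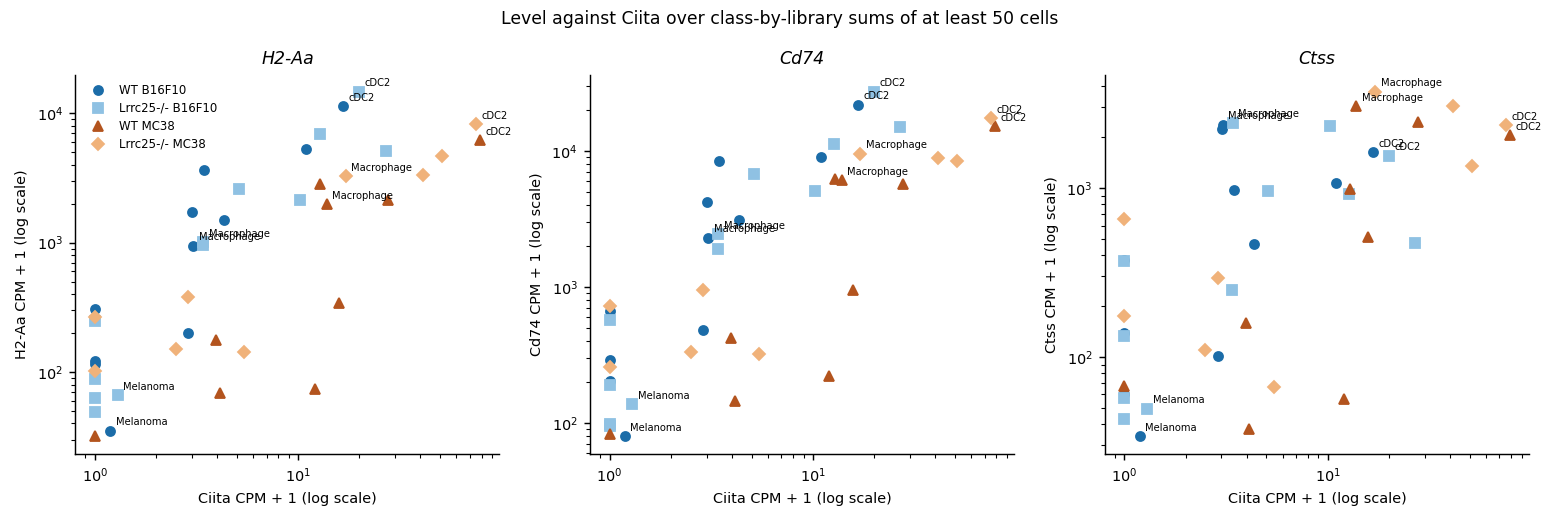
Level of H2-Aa, Cd74 and Ctss against Ciita, as CPM + 1 on log axes, over the 41 sums of a class in a library with at least 50 cells. Points go up together for H2-Aa (r = 0.78) and less closely for Ctss (r = 0.66), whose highest points are macrophages.

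The 5 genes outside the list whose levels over the 41 sums were most like the mean of the members, among 8802 considered, were Gm20513 (r = 0.902), Ly86 (0.886), Cd86 (0.884), Tnip3 (0.868) and Gapt (0.859). Gm20513 is the gene antisense to H2-Eb1 (chr17:34293073-34308070, minus strand), Ly86 encodes the MD-1 protein that pairs with the receptor RP105, and Cd86 a costimulatory ligand. Tnip3 was among the markers of the cDC2 gate. With the genotype, none of the 19 other route genes passed the size rule in monocytes and macrophages in B16F10 (11 measured) or MC38 (14 measured), the proteases Lgmn, Ctsl, Ctsb and Ctsd included. Of the 12 interferon-gamma genes Socs1, a feedback inhibitor, passed in MC38 (10.8 and 20.2 CPM, log2 difference 0.85, with 11 measured), and none of 9 measured passed in B16F10. Over all genes the rule called 4.08% higher and 0.982% lower in B16F10, and 0.811% and 2.54% in MC38.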

How the data were processed

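Single-cell 3' RNA libraries (SeekOne droplet kit, per the labels' protocols) were deposited by the authors as matrices of raw UMI counts per gene and barcode, whole numbers with no normalization. The reference was mm10 per the submitters' processing notes. Which aligner, counter and cell calling were run is not given in the sources used here. Barcode and gene tables deposited beside them hold no other unit or score.

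Cells with 300 or more genes, 500 or more UMIs and at most 20% mitochondrial UMIs were kept. The highest Scrublet scores (scanpy 1.11.5) were removed at 0.5% per 1000 cells, 480 to 1494 cells per library, because its automatic threshold marked 0% to 2.22%. A cell joined the class whose marker list scored highest, given 3 or more markers with a UMI and a score 1.25 times that of the next of 16 lists. The markers were fixed with the design and the scoring rule was set after the data were seen. A score is a range rather than a type: 3.82%, 5.22%, 4.19% and 4.80% of macrophages lay under 1.5 times. Macrophage subsets needed 2 or more UMIs of the named gene and 2 or more per 10000. Each macrophage joined the first subset it met in the order Ly6c2/Plac8+, Cxcl9+ Arg1+, Cxcl9+, Arg1+ and Mrc1+. The stricter gate asked for 2 times.

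Counts were summed per class and library and given as CPM of the class total. A common mix weights each subset's CPM alike in both libraries of a model. Sums were tested with edgeR 4.0.16 (quasi-likelihood, TMM scaling, filterByExpr, Benjamini-Hochberg adjustment, threshold 0.05; R 4.3.3), with model and genotype as terms, or library and class as terms. Each script's test was checked on simulated counts. DESeq2 1.42.0, no filter, library totals, other gates, other doublet and mitochondrial settings and leaving out each library were the alternatives. Shares over all genes come from a thinning of their own to 1000 UMIs. Differences within a model are of log2(CPM + 1). SE is the log2 difference over the square root of F. With no mice or cultures apart within a group, p-values measure only the spread between these libraries, and Poisson and binomial intervals cover counting error only. In the fits with model and genotype as terms, that spread is how far the genotype difference differs between the models, not spread between like libraries. In the class contrasts it is how far the class difference varies over the libraries. Gene positions come from GENCODE M21, in which 31436 of the 32285 gene IDs had the same name. All 10 members are named, other genes by list, by the size rule or as the 5 most alike. The members and lists were chosen with earlier results of these data known.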

Additional observations from a re-analysis of the deposited data

Results flagged for a closer look

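Some members passed the 1.5-fold rule in opposite directions in the 2 tumor models, lower in the Lrrc25-/- library of B16F10 and higher in that of MC38. With 1 library per group, the difference between the models was not tested. In T-gated cells the log2 differences in B16F10 and MC38 were -0.64 and 1.09 for H2-Aa, -0.65 and 1.28 for H2-Ab1, -1.15 and 0.66 for H2-DMa, -1.13 and 1.48 for H2-DMb1, -0.72 and 1.15 for Cd74 and -0.90 and 0.89 for Ctss. In cells of the fibroblast gate they were -1.67 and 1.04 for H2-Aa, -1.42 and 0.96 for H2-Ab1, -1.96 and 0.85 for H2-Eb1 and -1.23 and 0.97 for Ctss. In the natural killer (NK) cell gate they were -0.86 and 0.61 for H2-Ab1 and -0.63 and 1.64 for Cd74. These are classes that should hold little class II RNA. Macrophage markers moved with these values in all 3 gates. In the order WT B16F10, Lrrc25-/- B16F10, WT MC38, Lrrc25-/- MC38, the 10 macrophage markers summed to 677, 447, 219.7 and 491 CPM in T cells, where the 7 cDC2 markers summed to 141, 69.3, 54.6 and 79.1 CPM. The macrophage markers summed to 743, 510.4, 144 and 358 CPM in NK cells and to 666, 345, 255 and 461 CPM in fibroblasts, with C1qa at 103, 61.6, 25.7 and 58.9 CPM in NK cells and at 90.3, 38.6, 36.7 and 80.5 CPM in fibroblasts. Their part in these differences was not tested. In Ly6c2/Plac8+ macrophages H2-DMb2 alone differed in this way, by -1.05 and 0.72, at 23.1, 10.6, 15.6 and 26.2 CPM.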

How the results depend on the processing

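Every group is 1 library, a pool of 3 mice, so differences within a model have no test and the fits over both models have 1 residual degree of freedom. No value changed sign among those called under any alternative that was run. Of the alternatives to the counts and summary values, 185 stayed within the tolerance and 34 moved. For single members, 815 values stayed on the same side, 34 came to pass and 24 no longer passed a threshold, and 28 with no test moved. The causes were not tested. No paired analysis was possible because each group holds 1 library and the labels give no number that pairs them. Members with few UMIs (Ciita, H2-Oa and H2-DMb2 in macrophages) and classes with few cells (cDC1, B cells of MC38) are limited by depth.

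For genotype in monocytes and macrophages, 1 gene was called by edgeR, 10 by DESeq2, 96 without the filter and 0 without a term for tumor model, and no member in any of these. In macrophages alone 1 gene was called, 5 with DESeq2 and 83 without the filter. In monocytes 56 were called and 5 with DESeq2, and 3 members were called higher without the filter, beside 0.122% of 16416 genes. The subset counts were 3 in Ly6c2/Plac8+ cells (44 without the filter), 15 in Cxcl9+ cells (1 with DESeq2), 2 in Arg1+ cells (6 with DESeq2, 36 without the filter), 7 in Mrc1+ cells (2 and 56) and 2 in the remaining macrophages (31 without the filter). In cDC2 26 were called and 3 with DESeq2, and in migratory dendritic cells 0 and 16 without the filter.

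Against macrophages, pDC had 2 members called higher, 1 with DESeq2 and 1 with the stricter gate, and 1 called lower, 2 without the filter and 3 with the stricter gate. Monocytes had 5 called higher and 2 with the stricter gate. In MC38, 4 members passed the size rule and 0 at the common mix of subsets, which was worked out for the members only. In B16F10 the Lrrc25-/- share was higher for 4 members, for 2 at 2000 UMIs, and lower for 0, for 1 unthinned.

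Leaving out 1 library at a time, the members called higher and lower than in macrophages ranged from 9 to 9 and 1 to 1 in cDC1, 9 to 9 and 0 to 1 in cDC2, 6 to 7 and 2 to 3 in migratory dendritic cells, 1 to 2 and 1 to 5 in pDC, 3 to 7 and 1 to 1 in B cells and 3 to 6 and 0 to 0 in monocytes. In Cxcl9+ against Arg1+ macrophages they ranged from 7 to 9 and 0 to 0. For genotype the members' median log2 difference was 0.43, about 0.63 without either B16F10 library and 0.11 without either MC38 library, values with no test.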

Other observations

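Cells that no gate took, 9.16%, 13.5%, 19.4% and 13.5% of kept cells, held much class II RNA. H2-Aa was at 2997, 4409.7, 769 and 2206 CPM in them, Cd74 at 6364, 8809, 1997 and 5309 CPM and Ctss at 1145, 1350, 770.3 and 1402 CPM. H2-Aa in these cells was above the macrophage level of the same library in B16F10 and below it in MC38. In both models it was higher in the Lrrc25-/- library. These cells enter no comparison.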
